A study of Homo sapiens with 24 samples.

Results

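S100 calcium-binding proteins were followed as 10 genes, chosen by symbol: S100A2, S100A4, S100A6, S100A8, S100A9, S100A10, S100A11, S100A14, S100A16 and S100P. All 10 symbols had a row among the 18248 genes listed for HCC70 and among the 59409 names of the KIF20A depletion table. Of the 19283 genes listed for Hs578T, 9 were members, S100A9 being absent, and 8 had a row among the 23780 names of the KIF20A overexpression table, S100A8 and S100A9 being absent. RNA-Seq was carried out on 24 libraries, 3 for each of 8 conditions, in established triple-negative breast cancer (TNBC) cell lines. Hs578T and HCC70 cells, both labelled wild type, were sorted into breast cancer stem-like cells (BCSCs, gated as CD44-positive, CD24-negative and ALDH-positive cells) and non-BCSCs that lacked these marks. MDA-MB-231 cells carried either control sgRNA (sgCtrl) or 1 KIF20A sgRNA (KIF20A sg, labelled as a knockdown), and in a separate experiment either an empty vector (EV) or a KIF20A overexpression vector (KIF20A OE). The MDA-MB-231 cells were lentivirally infected, puromycin-selected populations. These 4 experiments were deposited separately, and each was taken as a batch of its own. A difference between cell lines and one between batches therefore cannot be told apart.

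S100 proteins are small proteins with a pair of EF-hand calcium-binding loops that work as dimers. Calcium opens the dimer and exposes a surface that grips partner proteins such as annexins, myosin or ezrin. Some members are secreted and then act as ligands of receptors such as RAGE (AGER) and TLR4. In breast tumours they are known as markers of basal, inflammatory, invasive or epithelial states, according to the member.

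In the GENCODE 44 annotation of GRCh38, 9 of the members lie within 1.63 Mb of chromosome 1, from base 151982915 to base 153616986, and S100P lies alone on chromosome 4, from base 6693878 to base 6697170 on the plus strand. The order along chromosome 1 is S100A10, S100A11, S100A9, S100A8, S100A6, S100A4, S100A2, S100A16 and S100A14. S100A9 is on the plus strand and the other 8 are on the minus strand. S100A16 and S100A14, the closest neighbours, are 1109 bases apart, and S100A9 and S100A8 are 29008 bases apart. The exons of S100A6 overlap those of an antisense gene. The libraries were stranded, but whether the counting used strand is not given in the sources used here. S100A11 has processed pseudogenes elsewhere in the annotation, to which some of its reads could have been assigned.

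RefSeq promoter sequences (GRCh38.p14) were matched for all 10 members, and the 120 bases before the start site are shown for the members on which the results below turn. Capitals mark the motifs searched on both strands, which were TATAAA, the GC box GGGCGG and the AP-1 motif TGACTCA, overlapping matches included. The first 4 sequences hold TATAAA. S100A6 holds 3 GC boxes, S100A10 holds none of the 3 motifs in this window and S100A2 holds the AP-1 motif.
S100A9, chr1:153357734-153357853, plus strand: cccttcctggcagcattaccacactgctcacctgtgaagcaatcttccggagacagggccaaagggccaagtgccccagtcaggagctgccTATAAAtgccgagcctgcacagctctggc
S100A8, chr1:153391074-153391193, minus strand: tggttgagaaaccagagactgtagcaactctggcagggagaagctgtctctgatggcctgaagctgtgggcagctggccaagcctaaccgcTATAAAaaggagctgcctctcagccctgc
S100A4, chr1:153545807-153545926, minus strand: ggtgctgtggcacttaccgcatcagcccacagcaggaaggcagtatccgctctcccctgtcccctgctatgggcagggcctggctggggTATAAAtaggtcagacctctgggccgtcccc
S100P, chr4:6693758-6693877, plus strand: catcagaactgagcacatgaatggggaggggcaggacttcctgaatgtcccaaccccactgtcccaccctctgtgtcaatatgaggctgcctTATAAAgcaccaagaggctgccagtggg
S100A6, chr1:153535992-153536111, minus strand: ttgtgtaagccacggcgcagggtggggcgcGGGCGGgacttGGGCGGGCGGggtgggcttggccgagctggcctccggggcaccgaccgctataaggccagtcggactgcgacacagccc
S100A10, chr1:151993860-151993979, minus strand: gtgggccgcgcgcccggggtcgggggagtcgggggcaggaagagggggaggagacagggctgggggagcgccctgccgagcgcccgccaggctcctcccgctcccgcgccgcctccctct
S100A2, chr1:153565845-153565964, minus strand: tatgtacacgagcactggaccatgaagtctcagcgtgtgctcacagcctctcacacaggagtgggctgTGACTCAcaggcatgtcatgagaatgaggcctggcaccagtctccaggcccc
TATAAA began 29 bases before the start site in S100A9 and S100A8, 31 bases before it in S100A4 and 28 bases before it in S100P. These 4 of the 10 members held it in the 120-base window, against 5.63% of the same windows of 35116 promoters. GGGCGG was found in 2 of 10 members, S100A6 and S100A11, against 34.0% of all windows. TGACTCA was found in 1 of 10 members, 52 bases before the start of S100A2, against 2.34% of all windows. In the whole 300-base promoters, the members held from 2 CpG dinucleotides (S100A8) to 32 (S100A10), beside a median of 14 over all promoters. S100A10, S100A6 with 31 and S100A11 with 22 were CpG-rich, and the remaining 7 members held 8 or fewer. A match is given as a description of the sequence only.

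Depth varied among the libraries of each table. The shallowest and deepest libraries of Hs578T held 28445391 and 34019701 reads. For HCC70 these totals were 25026555, in non-BCSC replicate 1, and 34032068, in BCSC replicate 1. The part of depth in the HCC70 differences was not tested. The sgRNA libraries were deepest, from 41424338 up to 51018667 reads, and those with vectors shallowest, from 15971297 up to 22182293. KIF20A, the targeted gene, was at 153 to 173 scaled reads in sgCtrl and at 91.1 to 145 in KIF20A sg. It was at 101 to 143 CPM in EV and at 269 to 1348 CPM in the libraries labelled KIF20A OE. ALDH1A3, the ALDH gene among the sorting markers listed here, was higher in Hs578T BCSCs (log2 fold change 1.29, limma adjusted p = 8.39e-06). It did not pass in HCC70 (0.17, adjusted p = 0.179). The RNA of the other sorting markers did not pass in either line. CD44 stood at 0.05 in Hs578T (limma adjusted p = 0.507) and 0.04 in HCC70 (0.788). CD24 stood at -0.05 in Hs578T (limma adjusted p = 0.717) and -0.31 in HCC70 (0.0543). The 3 libraries labelled KIF20A OE went against their cell line label. CD44, a gene of MDA-MB-231, was at 0.557 ± 0.591 CPM in them against 642 ± 135 in EV, and IRS4, a gene typical of embryonic kidney cells, was at 1571 ± 305 CPM against 0 in EV (SD, n = 3). These 3 libraries are therefore named by their label throughout, and no comparison without them can be made in that experiment.

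The members measured, and their levels, differed between the tables of the cell lines. TPM values, corrected for transcript length and library size, can be compared between genes, while values of different tables were normalized separately and are only set side by side. In Hs578T non-BCSCs, S100A6, or calcyclin, led at 3889 ± 120 TPM (SD, n = 3). It was followed by S100A11 at 721 ± 14.6, S100A10 at 366 ± 13.7, S100A16 at 313 ± 1.11, S100A4 at 159 ± 9.14 and S100A2 at 18.0 ± 1.66 TPM. No neighbours in this order overlapped. In Hs578T BCSCs, S100A16 (307 ± 18.9 TPM) and S100A10 (301 ± 18.5 TPM) overlapped, and the rest of the order was as in non-BCSCs. The other members were at the floor of Hs578T. S100A14 had 5 reads over the 3 non-BCSC libraries and 3 over the BCSC libraries, S100P had 2 and 2, and S100A8 had 1 and 0.

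Set side by side, the HCC70 libraries held more S100 RNA than those of Hs578T, and more kinds of it, a difference that was not tested. The members summed to 13909 ± 980 TPM in HCC70 non-BCSCs, 1.39% of all transcripts, and to 5467 ± 140 TPM, or 0.547%, in Hs578T non-BCSCs. S100A6 made up 71.1% of that sum in Hs578T and 37.0% in HCC70. In HCC70 non-BCSCs, S100A6 was at 5160 ± 695 TPM and S100A11 at 3120 ± 89.1 TPM. S100A10, S100A9, S100A14 and S100P followed at 1105 ± 36.6, 1089 ± 43.0, 1051 ± 193 and 1022 ± 76.8 TPM, each overlapping with the next. S100A16 was at 780 ± 50.4 TPM, S100A4 at 237 ± 30.1, S100A8 at 192 ± 5.49 and S100A2 at 154 ± 24.2 TPM. Thus S100A8, S100A9, S100A14 and S100P, with 0 to 5 reads a condition or no row in Hs578T, were all measured in HCC70. The epithelial markers EPCAM, CDH1 and 5 keratins summed to 8413 to 9635 TPM in HCC70 libraries, with 7 of 7 listed, and to 322 to 424 TPM in Hs578T libraries, with 6 of 7 listed. The mesenchymal markers VIM, CDH2, FN1 and ZEB1 summed to 11.8 to 14.0 TPM in HCC70, with 3 of 4 listed, and to 10152 to 12073 TPM in Hs578T, with 4 of 4 listed. The part of these differences in the S100 levels was not tested.

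**Figure D1:**
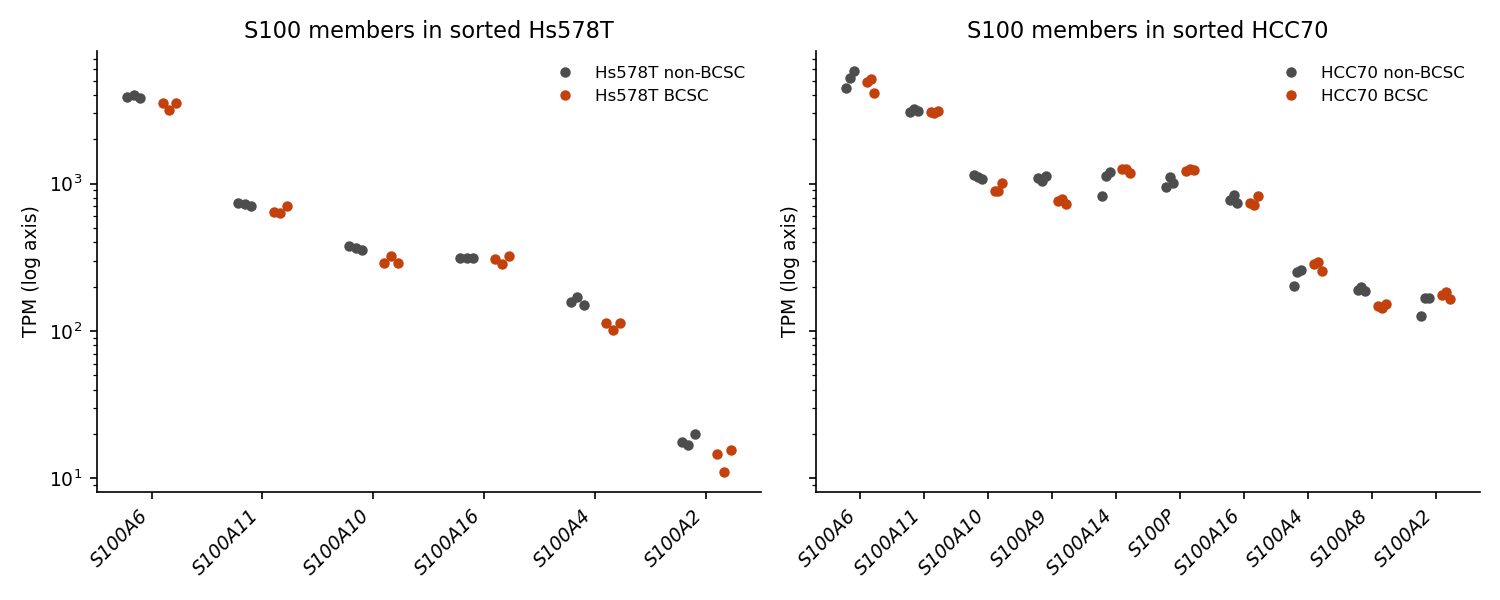
S100 members in sorted Hs578T (left) and HCC70 (right), as TPM on a log axis, with 1 point for each of the 3 non-BCSC (grey) and 3 BCSC (orange) libraries. S100A6 leads in both lines (3889 and 5160 TPM on average in non-BCSCs), and 4 members drawn for HCC70 are missing from the Hs578T panel because they were at 5 reads or fewer a condition or not listed there.

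In MDA-MB-231, levels were set on reads per kb of the GENCODE canonical transcript, since the tables carry no length term. In sgCtrl, S100A6 led at 3004 ± 542 scaled reads per kb, followed by S100A4 at 842 ± 37.1, S100A10 at 690 ± 101, S100A11 at 635 ± 81.7, S100A16 at 235 ± 19.0 and S100A2 at 46.6 ± 18.7. S100A4, the metastasis-associated member, overlapped with S100A10, and S100A10 with S100A11. The EV libraries of the other experiment gave the same order on CPM per kb, from S100A6 at 1842 ± 151 and S100A4 at 732 ± 183 to S100A16 at 443 ± 37.3 and S100A2 at 39.2 ± 32.2. S100A8, S100A9 and S100P had 0 reads in all 6 libraries of the depletion experiment, a count that allows up to 3 reads in each, and S100A14 had 19 reads over the 3 sgCtrl libraries. The set measured in MDA-MB-231 was therefore the same 6 members as in Hs578T.

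The first comparison asks which S100 genes differ between BCSCs and non-BCSCs of Hs578T. S100A4 and S100A10 were lower in BCSCs, and no member was higher. Of the 6 members with a mean of at least 1 TPM, 2 were called lower at an adjusted p under 0.05 and 0 higher. The same call was made for 4.26% of all 13324 genes tested in the lower direction and for 2.9% in the higher direction. In these bulk samples, fewer cells of a type and less RNA per cell cannot be told apart.

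S100A4, or metastasin, binds non-muscle myosin and is a marker of migratory and mesenchymal cells. It was at 157, 169 and 151 TPM in non-BCSC replicates 1 to 3 and at 114, 102 and 113 TPM in BCSCs. Every BCSC library lay below every non-BCSC library. The log2 fold change on log2(TPM + 1) was -0.53 (standard error 0.06, limma adjusted p = 0.003), 30.9% lower on the mean TPM. The call held in all 13 alternative fits, with adjusted p from 2.92e-09 to 0.0184. Of the 4 mesenchymal markers, FN1 was called lower (-0.31, adjusted p = 0.0352), while VIM stood at 0.07, CDH2 at 0.19 and ZEB1 at -0.05 without passing. Of 3 epithelial markers tested, KRT18 was called higher (0.28, adjusted p = 0.0296), while KRT8 stood at -0.20 and KRT14 at 0.01 without passing. The part of these markers in the S100A4 difference was not tested.

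S100A10 is the member that holds its open form without calcium and pairs with annexin A2 at the cell membrane. It was at 380, 367 and 352 TPM in non-BCSCs and at 290, 322 and 291 TPM in BCSCs, again without overlap. The log2 fold change was -0.28 (standard error 0.06, limma adjusted p = 0.0244), 17.8% lower. The call was lost when non-BCSC replicate 1 or 2 or BCSC replicate 1 or 3 was left out, with adjusted p of 0.087, 0.108, 0.112 and 0.0621, and held in the other 9 of 13 fits.

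The other members measured in Hs578T did not pass. S100A6, which binds CACYBP, was at 3856, 4022 and 3788 TPM in non-BCSCs and at 3556, 3155 and 3541 TPM in BCSCs, a log2 difference of -0.19 (adjusted p = 0.117 from limma). With edgeR and DESeq2 on recovered reads the adjusted p for S100A6 was 0.0429 and 0.00517. S100A11, an annexin A1 partner, was at 706 to 735 TPM and 631 to 701 TPM, a log2 difference of -0.13 (adjusted p = 0.181). S100A2, a member found in basal cells, was at 16.7 to 19.9 TPM and 11.1 to 15.5 TPM, a log2 difference of -0.37 (adjusted p = 0.114). S100A16 was at 312 to 314 TPM in non-BCSCs and 287 to 324 TPM in BCSCs, and its groups overlapped. In all, 5 of the 6 members lay wholly lower in BCSCs, where 17% of all genes tested did, and 0 lay wholly higher, where 12% did. The median log2 difference of the 6 was -0.24, beside -0.01 over all genes. When the libraries were rescaled by the median of ratios, 52% of all called genes were higher in BCSCs against 40.5% in the main fit, and the same 2 members were called.

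HCC70 asks the same question in an epithelial line. Here the calprotectin genes S100A8 and S100A9 were lower in BCSCs and no member was called higher. The 2 proteins form a heterodimer that is abundant in neutrophils and also made by inflamed and squamous epithelium. Of the 10 members tested, 2 were called lower, where 0.552% of all 13218 genes tested were, and 0 higher, where 2.28% were.

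S100A9 was at 1101, 1041 and 1124 TPM in non-BCSCs and at 758, 784 and 722 TPM in BCSCs. The groups were well apart, and the log2 fold change was -0.53 (standard error 0.06, limma adjusted p = 0.00855), 30.7% lower on the mean. S100A8 was at 190, 198 and 187 TPM in non-BCSCs and at 147, 144 and 153 TPM in BCSCs. Its log2 fold change was -0.37 (standard error 0.05, limma adjusted p = 0.0149), 22.9% lower. Without BCSC replicate 1 neither passed (adjusted p = 0.0637 for S100A9 and 0.102 for S100A8). S100A8 also did not pass without non-BCSC replicate 2 (adjusted p = 0.0522) or BCSC replicate 2 (adjusted p = 0.0708).

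The ratio of S100A9 to S100A8 TPM was 5.69 ± 0.383 in non-BCSCs and 5.11 ± 0.364 in BCSCs (SD, n = 3), and its groups overlapped (two-sided exact permutation p = 0.2, adjusted p = 0.36 over 9 ratios). The smallest p that 3 against 3 libraries allow is 0.1. S100A7, or psoriasin, a gene of the same chromosome 1 cluster that was not among the 10, fell as well, from 34.3 ± 3.17 to 19.5 ± 1.15 TPM (log2 fold change -0.78, limma adjusted p = 0.00594). Of the 7 myeloid markers, only CD14 passed the filter, at 94.8 to 119 TPM in non-BCSCs and 84.0 to 90.2 TPM in BCSCs (log2 difference -0.30, adjusted p = 0.0947). The leukocyte marker PTPRC was at most 0.0245 TPM, ITGAM at most 0.0477, LYZ at most 0.0996, CSF3R at most 0.114 and FCGR3A at most 0.0379 TPM in any HCC70 library, and MPO was not listed. The summed list ranged from 95.0 to 119 TPM in non-BCSCs and from 84.2 to 90.4 TPM in BCSCs, nearly all of it CD14.

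S100P, an ezrin-binding member first found in placenta, went the other way without passing the test. It was at 948, 1102 and 1016 TPM in non-BCSCs and at 1219, 1256 and 1233 TPM in BCSCs. The groups did not overlap, and the log2 difference was 0.28 (standard error 0.07, limma adjusted p = 0.0776). DESeq2 on recovered reads gave an adjusted p of 0.0245 and edgeR 0.071. S100A14, an epithelial member, was at 831, 1128 and 1194 TPM in non-BCSCs and at 1252, 1267 and 1183 TPM in BCSCs. The low value of non-BCSC replicate 1 set much of its log2 difference of 0.25, which was 0.09 without that library (adjusted p = 0.507).

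S100A10 was at 1141, 1104 and 1068 TPM in non-BCSCs and at 895, 895 and 1017 TPM in BCSCs, a log2 difference of -0.24 (standard error 0.07, limma adjusted p = 0.106). It was wholly lower in BCSCs, as in Hs578T, and passed in HCC70 with edgeR (adjusted p = 0.0358) and DESeq2 (adjusted p = 0.00223) on recovered reads. S100A11 at 3046 to 3219 TPM and 3013 to 3133 TPM and S100A16 at 735 to 835 TPM and 721 to 825 TPM overlapped between the groups. S100A6 (4451 to 5840 TPM and 4152 to 5099 TPM), S100A4 and S100A2 (126 to 168 TPM and 165 to 185 TPM) overlapped as well. Over the 10 members, 3 lay wholly lower, where 10.1% of all genes did, and 1 wholly higher, where 20.9% did. The median log2 difference was -0.03, beside 0.02 over all genes. Of all called genes 80.5% were higher in BCSCs, against 71.7% when the libraries were rescaled by the median of ratios. The share was 60.1% with edgeR and 54.5% with DESeq2, which change the test as well as the scaling.

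**Figure D2:**
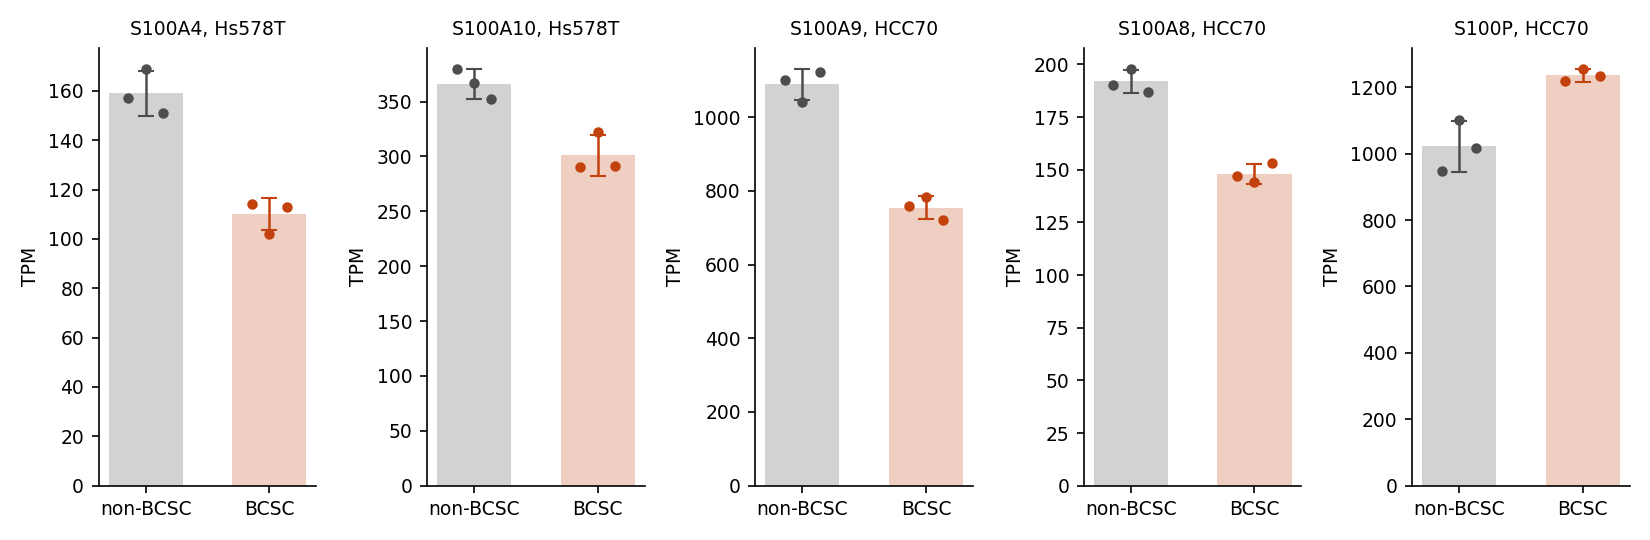
TPM of the members called in Hs578T (S100A4, S100A10) and HCC70 (S100A9, S100A8) and of S100P, which was wholly higher but not called. Points are the 3 libraries of a group, bars the mean and lines the SD. S100A9 falls from a mean of 1089 to 755 TPM and S100P lies at 1022 and 1236 TPM.

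Whether the difference itself differs between the lines was tested by the interaction of fraction and line over the 12 sorted libraries. Of 9 members tested, 1 was called in each direction. The same calls were made for 1.81% of 13705 genes in the direction of a more positive difference in Hs578T and for 6.29% in the other direction. After rescaling by the median of ratios, 45.4% of all called genes were of the first kind, against 22.3% in the main fit, with the same 2 members called.

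S100A4 was lower in BCSCs of Hs578T (-0.53) and at 203, 250 and 259 TPM in non-BCSCs and 284, 293 and 254 TPM in BCSCs of HCC70, a log2 difference of 0.23 that did not pass (adjusted p = 0.22) and was 0.12 without non-BCSC replicate 1. The difference between the lines was -0.76 (standard error 0.13, limma adjusted p = 0.00661), and it was called in all 17 alternative fits. For S100A2 it was -0.57 (adjusted p = 0.0815). For S100A10, which was called in Hs578T and did not pass in HCC70, the difference between lines was -0.04 (standard error 0.09, adjusted p = 0.801). S100A8 was called at 0.31 (standard error 0.08, adjusted p = 0.0406), but with 1 read in all 6 Hs578T libraries this is the HCC70 difference set against a gene at the floor. It was called in 4 of 17 alternative fits and stood at -0.04 with a pseudocount of 0.1. S100A9 could not be tested, having no Hs578T row.

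**Figure D3:**
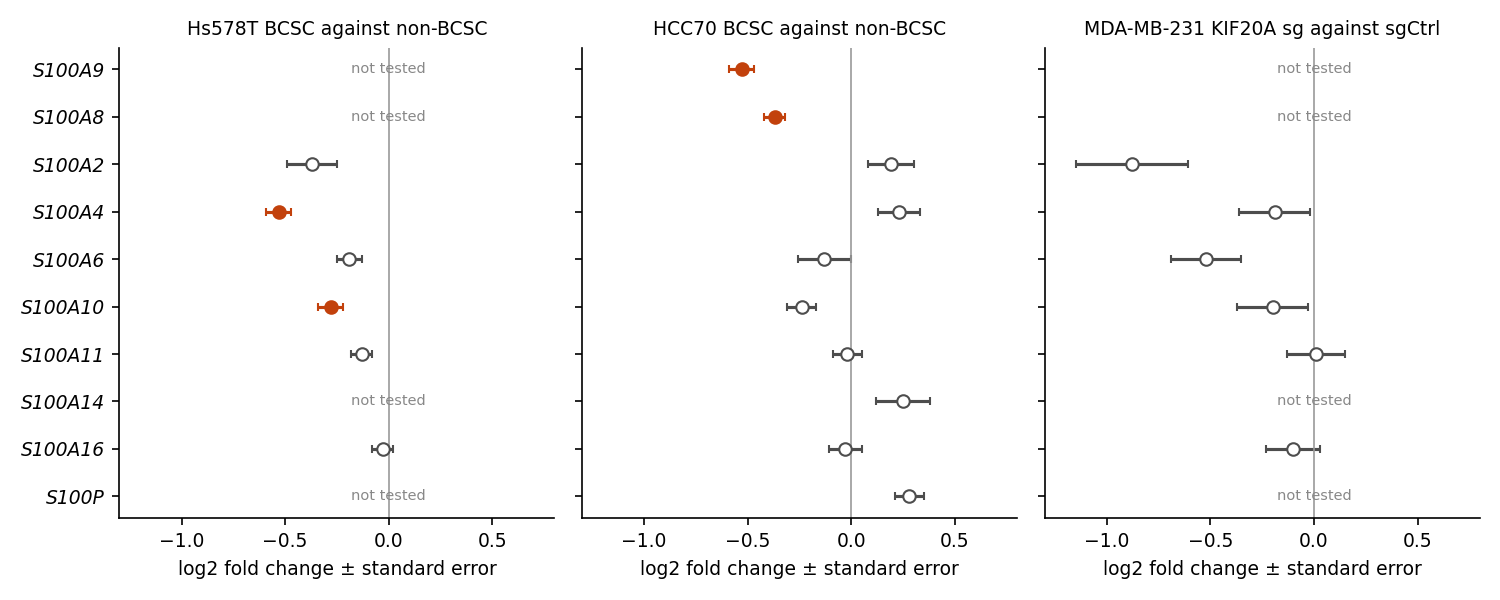
Log2 fold changes of the members with their standard errors in 3 comparisons, filled and orange where the limma adjusted p was under 0.05. S100A4 stands at -0.53 in Hs578T and 0.23 in HCC70, S100A9 at -0.53 in HCC70, and no member is filled for KIF20A sg.

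KIF20A depletion in MDA-MB-231 asks whether S100 genes follow KIF20A. No member passed. Of the 6 members tested, 0 were called higher and 0 lower by limma, as was the case for 0% of all 12852 genes in either direction. At an unadjusted p under 0.05, limma listed 2 members, S100A2 and S100A6, and 899 of all genes. With edgeR 0 members and 0 genes passed adjustment, and with DESeq2 0 members and 11 genes did.

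S100A6 was at 1408, 1469 and 1035 scaled reads in sgCtrl and at 932, 944 and 827 in KIF20A sg, the deposited values being reads divided by 1 factor per library. It was the 1 member of 6 wholly lower, where 7.3% of all genes were, and 0 were wholly higher, where 5.73% were. The log2 difference was -0.52 (standard error 0.17, limma adjusted p = 0.69). S100A2 was at 58.3, 53.6 and 24.6 in sgCtrl and at 25.1, 23.7 and 19.8 in KIF20A sg. The third sgCtrl library lay among the KIF20A sg libraries for this gene. The log2 difference of S100A2 was -0.88 (standard error 0.27, limma adjusted p = 0.69). Without sgCtrl replicate 3 it was -1.26 with an adjusted p of 0.0095, and 144 genes in all were called, while S100A6 stood at -0.68 (adjusted p = 0.053).

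The remaining members overlapped between the groups and did not pass. S100A4 was at 440, 446 and 410 in sgCtrl and at 400, 470 and 286 in KIF20A sg, with the third KIF20A sg library apart from the other two. S100A10, at 409 to 539 and 339 to 515, S100A11, at 305 to 392 and 312 to 395, and S100A16, at 261 to 301 and 227 to 275, all overlapped. Their log2 differences lay between -0.20 and 0.01, with standard errors of 0.13 to 0.17. For comparison, S100A4 and S100A10 each had a standard error of 0.06 in Hs578T. The smallest difference that could have been called in this experiment was not tested.

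The libraries labelled KIF20A OE held less S100 RNA than EV, the members summing to 369 ± 128 CPM per kb against 4366 ± 434 (SD, n = 3). On average S100A6 was down to 1.06 CPM, S100A2 to 1.31, S100A4 to 2.56 and S100A16 to 2.57. S100A2 had as few as 4 reads in a library. S100A10 and S100A11 were lower but still well measured. All 6 members tested were called lower, where 23.4% of all 15265 genes were, and 0 higher, where 46.2% were. With calls this common and the cell line label in doubt, the count is not given as a result about S100 genes.

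S100A6 was at 836, 724 and 839 CPM in EV and at 1.82, 0.766 and 0.589 CPM in the other group. Its log2 fold change was -8.65 with a standard error of 0.22 (limma adjusted p = 6.76e-08). The ratio of the mean CPM was 756. The fold change on log2(CPM + 1) understates such a ratio, since the low values are of the size of the pseudocount, and it was -9.58 with a pseudocount of 0.1 and -9.96 with edgeR. S100A16 was at 485, 505 and 569 CPM in EV and at 1.5, 3.47 and 2.73 CPM in KIF20A OE, 202 times lower. S100A4 was at 411, 269 and 447 CPM and at 3.01, 1.58 and 3.11 CPM, 147 times lower. These 3 members kept 57, 152 and 141 reads over the KIF20A OE libraries.

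S100A2 was at 74.5, 22.5 and 17.9 CPM in EV and at 2.25, 0.18 and 1.5 CPM in KIF20A OE, 29.2 times lower, and EV replicate 1 lay far above the other two. S100A10 was at 491, 470 and 435 CPM and at 171, 89.4 and 125 CPM, a log2 fold change of -1.89 (standard error 0.21, limma adjusted p = 9.02e-05). S100A11 was at 380, 293 and 367 CPM and at 119, 49.7 and 113 CPM, a log2 fold change of -1.97 (standard error 0.31, limma adjusted p = 0.000594). The 6 members lay wholly lower, where 25.2% of all genes did, and 0 wholly higher, where 48.9% did. S100A14, with 24 reads in EV and 4 in KIF20A OE, and S100P, with 4 and 6, were not tested. The median of all genes was 0.37 on the log2 scale. Rescaled by the median of ratios it was 0.03, with 50.6% of calls higher against 66.3%, and the 6 members then stood at -2.26 to -8.91, all still called.

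**Figure D4:**
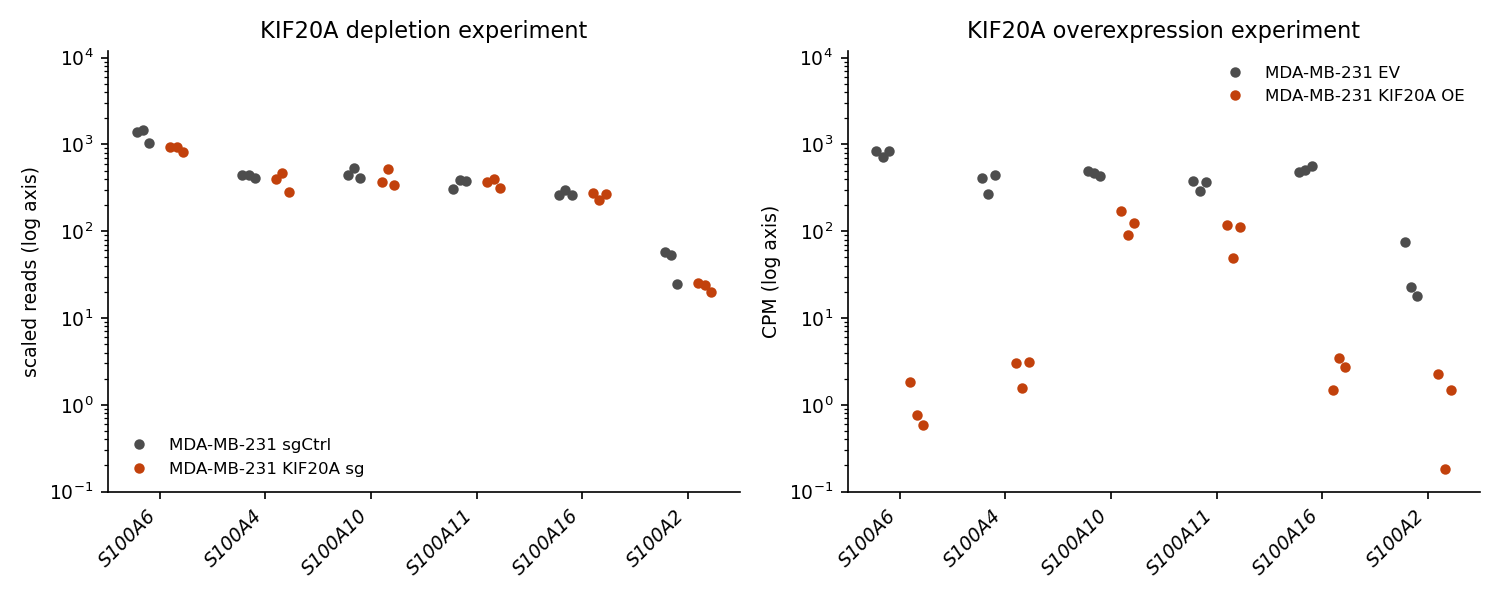
Values of 6 members in MDA-MB-231 on log axes, as scaled reads in the depletion experiment (left) and CPM in the overexpression experiment (right), with 1 point per library. S100A6 lies at 1035 to 1469 scaled reads in sgCtrl and 827 to 944 in KIF20A sg, and at 724 to 839 CPM in EV and 0.589 to 1.82 CPM in the libraries labelled KIF20A OE.

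The markers of the cells moved with these values. All 7 genes listed for MDA-MB-231 (CD44, VIM, AXL, CAV1, CAV2, PLAUR and LOX) were called lower and summed to 5288 to 6250 CPM in EV and 455 to 890 CPM in KIF20A OE. Of 8 embryonic kidney and neurofilament genes, 7 were called higher, and the list summed to 72.5 to 81.8 CPM and 1425 to 2029 CPM. Over all genes 23.4% were called lower and 46.2% higher. The label KIF20A OE and this change of markers cannot be told apart.

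**Figure D5:**
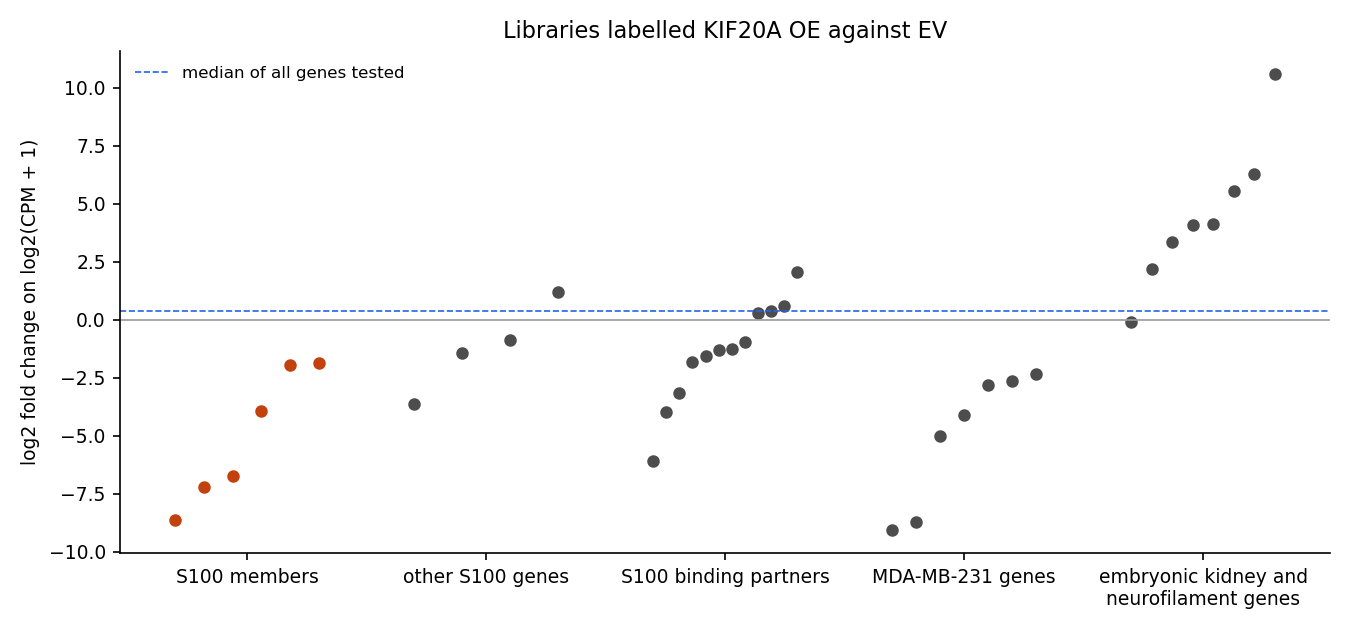
Log2 fold changes of the libraries labelled KIF20A OE against EV for the tested genes of 5 lists, 1 point per gene, with the S100 members in orange and a dashed line at the median of all genes (0.37). The members span -8.65 to -1.89 and the MDA-MB-231 genes -9.08 to -2.33.

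The binding partners of S100 proteins were 12 genes, all tested. In Hs578T 1 was called higher, where 2.9% of all genes were, and 0 lower, where 4.26% were. That gene was EZR (log2 fold change 0.20, limma adjusted p = 0.0338). In HCC70 0 of 12 were called, where 2.28% of all genes were called higher and 0.552% lower. In the depletion experiment 0 of 12 were called, as were 0% of all genes. For the difference between lines 1 of 12 was called, ANXA1 at -0.32 (limma adjusted p = 0.0382). In that direction 6.29% of all genes were called. Counts this small are not read as a result about the partners. ANXA2, the partner of S100A10, differed by -0.19 in Hs578T (adjusted p = 0.159) and by 0.04 in HCC70 (adjusted p = 0.739). The ratio of S100A10 to ANXA2 was 0.66, 0.67 and 0.662 in HCC70 non-BCSCs and 0.534, 0.543 and 0.557 in BCSCs, wholly lower (two-sided exact permutation p = 0.1, the smallest possible, and 0.225 adjusted over 9 ratios). In Hs578T it was 0.198 ± 0.00327 and 0.186 ± 0.0273 and overlapped. Among the libraries labelled KIF20A OE, 8 of 12 partners were called lower, where 23.4% of all genes were. They were led by ANXA1 (-6.09) and AHNAK (-3.99). The partners called higher, where 46.2% of all genes were, included MDM2 (2.07) and CACYBP (0.57). With the cell line label in doubt, these counts are not given as a result about the partners.

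Of 5 receptors of secreted S100 proteins, 2 were tested in Hs578T, 1 in HCC70 and 2 in the depletion experiment, with 0 called. BSG was at 416 to 434 TPM in Hs578T non-BCSCs and 408 to 480 TPM in BCSCs, and in HCC70 at 188 to 210 TPM and 160 to 192 TPM. TLR4, a receptor of calprotectin, was at 62.0 ± 3.88 TPM in Hs578T non-BCSCs and had 2 reads in all over the 6 HCC70 libraries. Of the calprotectin genes, S100A8 had 1 read in all of Hs578T and S100A9 had no row there. AGER was at 0.542 to 0.936 TPM in HCC70 and 0.2 to 0.268 TPM in Hs578T. In the overexpression experiment, 1 of 3 receptors tested was called, TLR4, with 3206 reads in EV and 0 in KIF20A OE. Of all genes, 23.4% were called lower there.

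Of the 10 other S100 genes, S100A13 was called lower in Hs578T BCSCs, from 115 ± 4.18 to 95.1 ± 6.89 TPM (log2 fold change -0.28, limma adjusted p = 0.034), 1 of 2 tested. Of all genes, 4.26% were called lower there. In HCC70, S100A7 was 1 of 3 tested, where 0.552% of all genes were called lower. In the depletion experiment 0 of 3 were called. In KIF20A OE, 3 of 4 tested were called lower (S100A3, S100A5 and S100A13), where 23.4% of all genes were. S100A1 was called higher (1.18, limma adjusted p = 0.00254), where 46.2% of all genes were. With the cell line label in doubt, these KIF20A OE counts are not given as a result about S100 genes.

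The profiles that varied most over the 8 conditions were those of S100A6, S100A4 and S100A16. Profiles were means of log2(value + 1), centred within the sorted lines and within MDA-MB-231, and were compared over 8 values among 9284 genes by Pearson's r. The genes most like S100A6 were LASP1 (r = 0.9988), LTBR (0.9977) and SLC35D2 (0.9976). Those most like S100A4 were ZNF544 (0.9966), MYOF (0.9959) and PARP14 (0.9958), and those most like S100A16 were LAMB3 (0.9995), P4HTM (0.9973) and LATS2 (0.9967). The conditions of a table share their libraries' scaling, and the low values of KIF20A OE weigh most in each r.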

How the data were processed

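Poly-A RNA from 24 samples of 3 cell lines was sequenced, with replicates described as biological triplicates. The submitters' processing notes name HISAT2 2.0.5, featureCounts 1.5.0-p3 and GRCh38. The authors deposited TPM for Hs578T and HCC70, a signal of reads divided by 1 factor per library for the depletion experiment, and CPM for the overexpression experiment. Whole reads were recovered from the steps between values (tolerance 0.02) for all genes, and in the deposited signal and CPM columns 100% of values came out whole. In TPM the reads of 347 and 398 genes were multiplied to settle a common divisor. The Hs578T, HCC70 and overexpression tables list only genes with a read. No sample column was left unused.

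The study's methods name DESeq2, which needs counts. As the tables hold normalized values, limma 3.58.1 (trend, R 4.3.3) on log2(value + 1) was the main test, two-sided, on genes with a mean of at least 1, with Benjamini-Hochberg adjustment over all genes tested in a comparison. It was also run on simulated data with the same noise level for all genes and experiments. That run does not show how the test behaves at the spread of each experiment. On the recovered reads, edgeR 4.0.16 called 0 genes in the depletion experiment and 9931 in the overexpression experiment, and DESeq2 1.42.0 called 11 and 10185. The members, gene lists and alternatives were chosen with earlier results of these data known. Genes named are the members, the listed S100 genes, receptors, partners and markers, and for the 3 members of most varied profile the 3 most similar genes. Python 3.11.15 with numpy 2.4.6, pandas 2.3.3, scipy 1.17.1 and matplotlib 3.10.9 served for tables and figures. Intervals and floors cover counting error only. One listed binding partner is not reported here.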

Additional observations from a re-analysis of the deposited data

Results flagged for a closer look

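The effect of the sort differed between the lines for 2 members by the interaction test. For S100A4 the BCSC minus non-BCSC difference in Hs578T was below that in HCC70 by -0.76 on the log2 scale (limma adjusted p = 0.00661), with all 3 BCSC libraries lower in Hs578T and overlapping groups in HCC70. For S100A8 the value was 0.31 (limma adjusted p = 0.0406), but S100A8 had 1 read in all of Hs578T, so the value restates the fall in HCC70.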

How the results depend on the processing

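Of 517 alternative values of the members' log2 fold changes, 469 kept direction and side of the threshold. In the overexpression comparison all 78 did. The replicate numbers did not pair the samples: same-numbered libraries correlated in their deviations at -0.161 to 0.185, and not above 0.1 for every pair of any comparison. In the depletion experiment, the highest correlations with another number were 0.276, 0.254 and 0.262 for KIF20A sg replicates 1 to 3. A pairing by other numbers was not tested. With a replicate block, the members called were 3 in Hs578T, 0 in HCC70 (S100A9 at adjusted p = 0.0582, S100A8 at 0.0658), 0 in the depletion experiment, 6 in the overexpression experiment and 1 for the difference between lines, against 2, 2, 0, 6 and 2. Leaving out single libraries gave 1 to 2, 0 to 2, 0 to 1, 6 and 1 to 2, in that order. DESeq2 called 4 in HCC70, and a pseudocount of 0.1 left 1 for the difference between lines, where S100A8 turned to -0.04. The cause was not tested. The fits that leave a library out also hold fewer samples. The other sign changes were in members near 0. Rescaling turned S100A10 to 0.01 for the difference between lines, and with a library left out the ranges were -0.09 to 0.02 for S100A10, -0.15 to 0.04 for S100A6 and -0.05 to 0.06 for S100A16. They were -0.07 to 0.02 for S100A16 in Hs578T, -0.04 to 0.00 for S100A11 and -0.09 to 0.02 for S100A16 in HCC70, and -0.10 to 0.11 for S100A11 and -0.35 to 0.01 for S100A4 in the depletion experiment. Over all genes, settings are named where a fit moved the number of calls by over 1.5 times, and ranges also hold smaller moves. Calls moved from 953 in Hs578T to 1644 with edgeR and to 343 to 865 with a library left out. From 374 in HCC70 they moved to 677 with edgeR, 1179 with DESeq2, 178 with no minimum mean, 233 rescaled, 128 with the replicate block and 32 to 270 with a library left out. From 0 in the depletion experiment they moved to 11 with DESeq2 and 0 to 144 with a library left out, and from 1110 for the difference between lines to 408 with the replicate block and 440 to 1414. At these depths, members with 3 reads or fewer in a condition give only a bound.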
